A study of Mus musculus with 11 samples.

Results

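The identity genes of brain pericytes described here are 10 of the 32287 features of the deposited tables, found by symbol: Vtn, Rgs5, Cspg4, Anpep, Atp13a5, Higd1b, Ndufa4l2, Cox4i2, Art3 and Pth1r. All 10 are counted in each of the 11 libraries. Pericytes are the mural cells of brain capillaries. They sit in the basement membrane around the endothelial tube, share their origin and receptors such as Notch3 and Pdgfrb with the smooth muscle cells of arterioles, and are recognised in brain tissue by a set of identity genes and not by a single marker. These genes are described for pericytes, smooth muscle cells (SMC), fibroblasts, endothelial cells (EC) and microglia, and then for the genotypes of the mice.

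Cells of the brain vasculature were sequenced singly in droplets from 6 R182C-TgN3 mice (genotype TgN3 R182C, line Tg350, 3 mice of 6 months and 3 of 9 months) and 5 WT-TgN3 mice (genotype TgN3, line Tg100, 3 of 6 months and 2 of 9 months), with 1 library per mouse. The mice were untreated, of both sexes, and prepared in 4 batches. Both genotypes carry a human NOTCH3 transgene beside the mouse Notch3 gene, with the R182C variant of CADASIL, an inherited disease of small brain vessels, in R182C-TgN3 mice alone, and since each genotype is a line of its own, the variant and the line cannot be told apart. Brains were digested to microvessel fragments that were pulled out with magnetic beads against the endothelial surface protein CD31 and then dissociated to single cells.

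Cells were assigned by their own counts of unique molecular identifiers (UMIs, which stand for captured RNA molecules). A pericyte had at least 1 UMI of each of Kcnj8, Abcc9 and Vtn, and no class was allowed more than 20 in 10000 of a cell's UMIs from the gate genes of another class. That limit was chosen after the gate genes and cell numbers were seen. This gave 374 pericytes, 2077 SMC, 33264 EC, 80 fibroblasts and 11485 microglia among 58346 kept cells. Of 508 cells with all 3 pericyte genes, 134 were left out by the limit, and in 116 of them endothelial genes were over it. A mouse had between 12 and 83 pericytes, and their median depth per mouse was 2305.5 to 4610.5 UMIs against 5470.5 to 10355.5 in SMC and 3332 to 7742 in EC. Fibroblasts reached 10 cells in 4 mice, 2 of each genotype, and fibroblast values are from these mice. Libraries held 17550806 to 64215050 UMIs. In all, 2538 barcodes occurred in more than 1 library, most of them among the 6 months mice, where a pair of R182C-TgN3 libraries shared 350 barcodes (10.2% of the smaller). Libraries of different genotype shared barcodes too. WT-TgN3 6 months replicate 3 shared 286 (5.3%) with R182C-TgN3 6 months replicate 1 and 278 (8.1%) with replicate 2. Such a barcode was carried by 1652 kept cells, 7 of them pericytes, and the genotype tests in pericytes are also given without them.

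Levels are given as CPM, the UMIs of a gene in 1000000 UMIs of a class summed within a mouse. They come from the 3′ end of each captured molecule and are not divided by gene length. The summed level of the 3 pericyte genes in the gated pericytes was 11385 CPM in the lowest mouse, 14115 in the median mouse and 16321 in the highest. The 5 SMC genes summed to 56.2, 195 and 627 in the same cells, with 1 of the 5 at 0 in every mouse, the 5 EC genes to 145, 257 and 680, the 5 fibroblast genes to 85.6, 188 and 309, and the 4 microglia genes to 14.3, 63.1 and 262. The 4 choroid plexus genes summed to 15.8, 130 and 565 CPM, with 1 of the 4 at 0 in every mouse, and the 3 B cell genes to 169 in the highest mouse and 0 in the median mouse. Defining genes of ependymal cells, T cells and neutrophils were at 0. The part of RNA from other cells in the member values was not tested. Because Vtn chose the cells, its level in pericytes is a description, and every test of Vtn between classes was made with cells chosen by Kcnj8 and Abcc9 without it. That gate gave 377 cells, 374 of which had Vtn. The genotype tests used the gate with Vtn unless another is named. Kcnj8 and Abcc9, the pore and regulatory subunits of a potassium channel gated by ATP, are neighbours with 16247 bp between them.

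Where the genes lie is given on mm10 from GENCODE vM21. Vtn is at chr11:78499091-78502324, Rgs5 at chr1:169655501-169695813, Cspg4 at chr9:56865033-56899870, Higd1b at chr11:102835849-102838040, Ndufa4l2 at chr10:127514967-127517154, Cox4i2 at chr2:152754173-152765037 and Art3 at chr5:92331827-92414628, all on the forward strand. Anpep at chr7:79821803-79861059, Atp13a5 at chr16:29231851-29378732 and Pth1r at chr9:110722085-110747145 are on the reverse strand. On the opposite strand, Art3 overlaps Cxcl10 and Cxcl11, Ndufa4l2 overlaps Shmt2 and Pth1r overlaps Myl3. On their own strand Anpep, Atp13a5 and Art3 each overlap a predicted gene, with which their counts could be shared.

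The 250 bases before the RefSeq start (GRCm38.p6) are shown for the 3 members with the highest levels in pericytes: Vtn and Atp13a5, which were low in SMC, and Rgs5, which was not. They are written 5′ to 3′ on the strand of the gene, with capitals for the motifs searched on both strands. These were TGGGAA, the core bound by the Notch effector CSL, TATAAA, the core of the TATA box, of which adjoining copies on both strands run together as TTTATAAA, and ACGTG, the core of the hypoxia response element.
Vtn, chr11:78498870-78499119, forward strand: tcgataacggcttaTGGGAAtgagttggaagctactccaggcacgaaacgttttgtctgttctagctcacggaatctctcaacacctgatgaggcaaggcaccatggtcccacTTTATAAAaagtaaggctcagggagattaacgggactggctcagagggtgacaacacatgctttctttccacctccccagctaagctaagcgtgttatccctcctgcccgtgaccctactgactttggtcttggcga
Atp13a5, chr16:29378733-29378982, reverse strand: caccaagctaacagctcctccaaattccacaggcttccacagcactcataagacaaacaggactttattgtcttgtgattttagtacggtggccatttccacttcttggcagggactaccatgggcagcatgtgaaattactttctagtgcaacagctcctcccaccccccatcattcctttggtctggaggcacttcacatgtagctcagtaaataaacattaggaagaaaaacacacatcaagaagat
Rgs5, chr1:169655251-169655500, forward strand: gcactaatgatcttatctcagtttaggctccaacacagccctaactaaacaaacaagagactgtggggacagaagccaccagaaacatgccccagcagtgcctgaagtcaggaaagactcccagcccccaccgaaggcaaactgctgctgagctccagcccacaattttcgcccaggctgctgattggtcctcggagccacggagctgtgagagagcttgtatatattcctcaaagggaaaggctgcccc
The Vtn window held TGGGAA 236 bases before the start and 2 overlapping copies of TATAAA, and its end runs into the Vtn gene as GENCODE draws it, while the windows of Atp13a5 and Rgs5 held none of the 3 motifs. Of 32851 mouse promoter windows of this length, 21.6% held TGGGAA, 12.4% held TATAAA and 16.6% held ACGTG, which was found in no window of a member. Of the others, Art3 had TATAAA in 2 of its 3 listed windows and TGGGAA in 1, and Cspg4, Anpep and the 3 windows of Pth1r held none. Higd1b, Ndufa4l2 and Cox4i2 had no entry.

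All 10 genes had their highest mean level in pericytes, and for 9 of them no mouse of any other class reached the lowest pericyte value. Both counts include Vtn, for which this follows from the choice of the cells. The share of all genes that meet the same rule was not computed, so the counts are a description. How far the next class lay below differed by gene, from 1.98-fold for Cspg4 in SMC to 73.2-fold for Atp13a5 in SMC. Together the 10 genes made up 2.44% ± 0.24 (SD, n = 11) of all pericyte UMIs, 0.212% ± 0.041 of those of SMC (n = 11), 0.0403% of those of fibroblasts (n = 4), 0.00736% of those of EC and 0.00408% of those of microglia (n = 11 each).

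**Figure D1:**
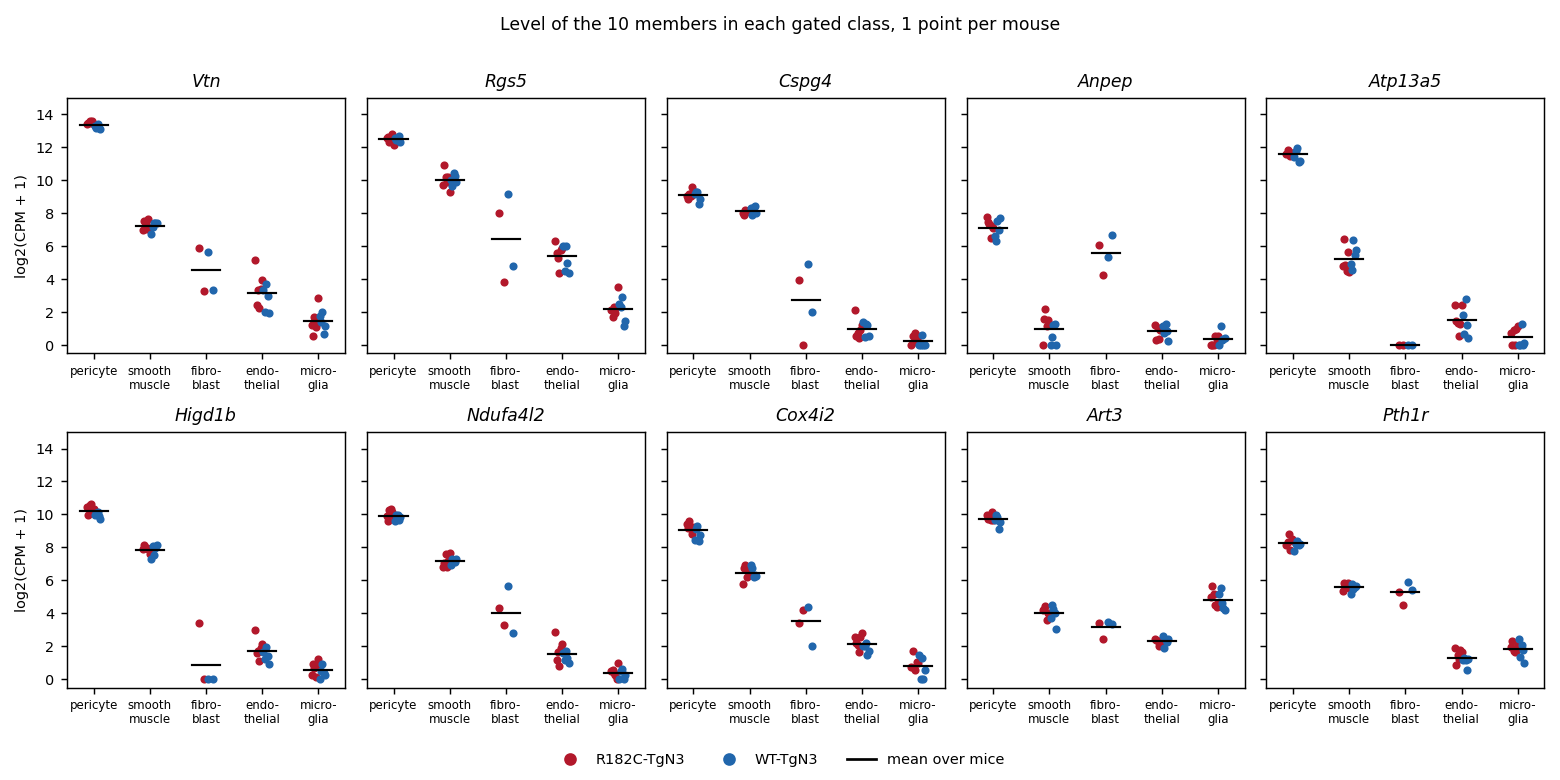
Level of each member in pericytes, SMC, fibroblasts, EC and microglia as log2 of CPM plus 1, with 1 point per mouse (fibroblasts 4 mice, others 11) coloured by genotype and a line at the mean of the log2 values. Pericytes stand highest in all 10 panels; Cspg4 has the smallest step to SMC, the fibroblast points of Anpep reach the pericyte points, and in the Art3 panel microglia come next after pericytes.

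Differences between classes were tested with the edgeR quasi-likelihood test on counts summed per mouse, with the mouse as a block and p-values adjusted over all tested genes (Benjamini-Hochberg). The test against SMC and against EC used 10 mice and that against fibroblasts 4 mice, and WT-TgN3 9 months replicate 2, with 12 pericytes, entered none. All 9 members other than Vtn were higher in pericytes than in SMC, where 20.6% of the 8407 genes tested were higher and 24.4% lower. All 9 were also higher than in EC, where 17.5% of 12655 genes were higher and 29.9% lower, and than in fibroblasts, where 14.4% of 4281 genes were higher and 17.7% lower. Members with few UMIs in the other class passed the filter on low counts there through their pericyte counts. Such were Atp13a5 (0) and Higd1b (2) in fibroblasts and Anpep in SMC (21) and EC (195). Their calls in these comparisons are therefore no separate support. With cells chosen without Vtn, all 10 were higher in each of the 3 comparisons, against 20.2%, 17.8% and 13.3% of the genes tested. The median log2 difference of the 9 members was 2.28 against SMC, 7.49 against EC and 5.72 against fibroblasts, where the medians over all genes were -0.00347, -0.21 and -0.03.

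Among the surface and matrix proteins, Vtn encodes vitronectin, an adhesive protein that pericytes secrete into the basement membrane. Its level in pericytes was 8707, 11043 and 12672 CPM in the lowest, median and highest mouse, against 107, 160 and 199 in SMC. No mouse overlapped, and pericytes were 69.6-fold higher on the means (10740 ± 1293 against 154 ± 27.5, SD, n = 11 each). In EC Vtn was at 10.1 ± 9.05 and in microglia at 2.00 ± 1.62 (n = 11 each), and in the 4 fibroblast mice it was 8.88, 9.02, 49.8 and 57.7. The limit on pericyte genes lowers Vtn in the other classes by construction. Without Vtn in the gate and in the limit, its level was 259 in SMC, 22.9 in EC and 84.5 in fibroblasts, and the pericyte level was still 39.8-fold, 450-fold and 122-fold higher on the means. The log2 differences were then 4.97 (SE 0.14) against SMC, 8.73 against EC and 6.87 against fibroblasts by edgeR.

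Cspg4 encodes the proteoglycan NG2, a mural surface protein widely used to stain pericytes. Its pericyte level was 376, 569 and 758 in the lowest, median and highest mouse, and its SMC level was 239, 281 and 341. The ranges did not overlap, but the step was the smallest of the list, 1.98-fold on the means (561 ± 105 against 283 ± 35.2) with a log2 difference of 0.60 (SE 0.11, edgeR adjusted p = 2.6e-05). Against EC it was among the largest, at 8.76, from a level of 1.12 ± 0.879 in EC. Cspg4 therefore separated both mural classes from EC by more than it separated pericytes from SMC. In the 4 fibroblast mice it was 0, 3.01, 14.4 and 29.9 CPM.

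Anpep encodes aminopeptidase N (CD13), a membrane peptidase that trims peptides outside the cell. Its pericyte level was 78.8, 151 and 214 in the lowest, median and highest mouse, and its SMC level was 0, 1.38 and 3.58, from 21 UMIs in 2077 cells. Pericytes were 121-fold higher than SMC on the means, with a log2 difference of 6.09 (SE 0.28). Fibroblasts were the other class with Anpep, at 17.8, 39.8, 67.3 and 102 CPM in the 4 mice, so that the highest fibroblast mouse was above the lowest pericyte mice. The log2 difference from fibroblasts was 1.30 (SE 0.39, edgeR adjusted p = 0.019), the smallest of the members in that comparison. It did not pass in 4 of the 15 other settings, with DESeq2 (1.37, adjusted p = 0.088), with cells of at least 1000 genes (1.32, edgeR adjusted p = 0.0645), without R182C-TgN3 9 months replicate 2 (0.80, edgeR adjusted p = 0.161) and without R182C-TgN3 6 months replicate 2 (1.31, edgeR adjusted p = 0.0773).

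The signalling members are Rgs5, which encodes a GTPase-activating protein that shortens signals from G-protein coupled receptors, and Pth1r, the receptor for parathyroid hormone and its related peptide. Rgs5 was at 4576, 6123 and 7250 CPM in the lowest, median and highest mouse in pericytes and at 639, 1023 and 1924 in SMC. The ranges were apart, with pericytes 5.39-fold higher on the means (log2 difference 2.07, SE 0.12). SMC still held more Rgs5 than of any other member, and Rgs5 was also the member with the most UMIs in EC, at 45.5 ± 20.7 (log2 difference 6.75). In fibroblasts its 4 values were uneven, 13.3, 27.1, 255 and 578, against a log2 difference of 5.72 (SE 0.68). The value moved with the choice of fibroblasts and was 8.76 with no limit on genes of other classes but without cells that passed several gates (a setting chosen after seeing the data, as were the limit of 10 and the gates with at least 10 cells), where 16 UMIs of Rgs5 were left in fibroblasts against 208, and 4.96 with the gate without Vtn.

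Pth1r in pericytes was at 222, 300 and 454 in the lowest, median and highest mouse. SMC held 35.7, 47.7 and 55.8 and fibroblasts 22.2, 38.4, 42.1 and 59.8, so that the means of the classes below pericytes, 47.6 ± 6.39 and 40.6 ± 15.4, differed by less than the spread between fibroblast mice. Pericytes were 6.51-fold above SMC (log2 difference 2.28, SE 0.12) and the log2 difference from fibroblasts was 2.92 (SE 0.32). In EC Pth1r was at 1.54 ± 0.659 and in microglia at 2.71 ± 1.04.

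Higd1b, Ndufa4l2 and Cox4i2 encode small proteins of mitochondria, and each has a close relative that most tissues use. Higd1b was at 861, 1117 and 1599 in pericytes (lowest, median, highest mouse) and at 154, 247 and 286 in SMC, which is 5.02-fold on the means. Ndufa4l2 was at 778, 947 and 1298 in pericytes and at 110, 143 and 206 in SMC, or 6.72-fold. Cox4i2, an isoform of a cytochrome c oxidase subunit, was at 332, 568 and 763 in pericytes and at 53.5, 88.7 and 120 in SMC, or 5.98-fold. None of the 3 overlapped between the classes. The log2 differences were 1.99 (SE 0.11) for Higd1b, 2.37 (SE 0.12) for Ndufa4l2 and 2.17 (SE 0.13) for Cox4i2. Against EC the log2 differences were 8.64, 8.57 and 6.94, and against fibroblasts 8.36, 5.69 and 5.15 in the same order. Higd1b was at 2 UMIs in the fibroblasts, both in 1 mouse.

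Atp13a5 encodes a transmembrane ATPase of the P5 family, which includes transporters of polyamines. It was at 2169, 3154 and 3995 in pericytes and at 20.7, 29.1 and 86.4 in SMC (lowest, median, highest mouse), 73.2-fold on the means and 6.01 on the log2 scale (SE 0.17). In EC it was at 2.27 ± 1.91, with the largest log2 difference of the list in that comparison, 10.27. No UMI of Atp13a5 was counted in the 80 fibroblasts, so that pericytes were at least 1183-fold higher, taking 3 counts over all fibroblasts as the limit. The gate without Vtn kept 5 UMIs of Atp13a5 in fibroblasts, and pericytes were then 593-fold higher on the means.

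Art3 encodes an ecto-ADP-ribosyltransferase, a protein anchored at the cell surface. It was at 556, 852 and 1122 in pericytes and at 7.36, 15.4 and 22.1 in SMC (lowest, median, highest mouse). The ranges were far apart, 55.2-fold on the means, with a log2 difference of 5.31 (SE 0.13). Unlike the other 9 members, the next class after pericytes was microglia, at 17.4, 24.2 and 49.4, from 1710 UMIs. The same microglia held 288 UMIs of Rgs5 and 147 of Vtn, although both were higher than Art3 in pericytes, so that Art3 in microglia did not stand in the ratio to the other members that it had in pericytes. The part of the genes that overlap Art3 was not tested.

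**Figure D2:**
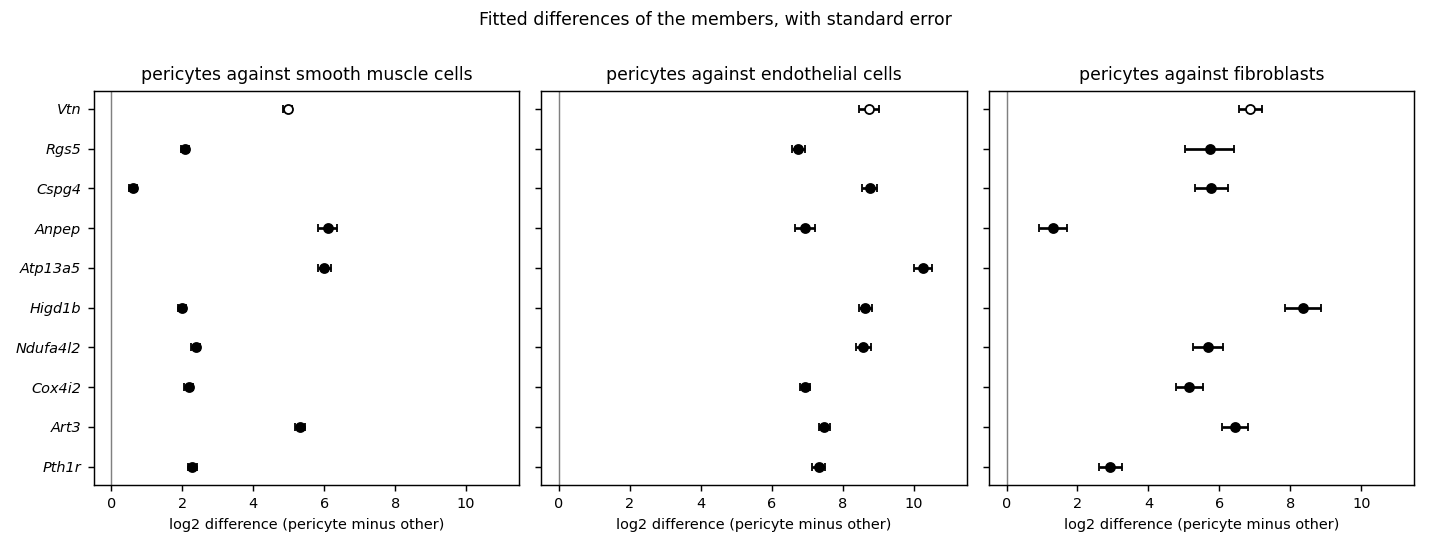
Log2 difference of each member between pericytes and SMC, EC and fibroblasts from the edgeR fits, with bars of 1 SE (10, 10 and 4 mice). Open points are Vtn with cells chosen without it, and Atp13a5 against fibroblasts is left out because no UMI was counted there. All points lie above 0, lowest for Cspg4 against SMC (0.60) and for Anpep against fibroblasts (1.30).

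Across the settings tried, every member fit against SMC and against EC was past the threshold, and the same held for fibroblasts apart from the 4 fits of Anpep above. The gate without Vtn lowered the log2 difference of Atp13a5 to 8.80 from EC, 5.30 from SMC and 8.71 from fibroblasts, and that of Anpep from SMC to 5.23. The tighter limit of 10 in 10000 gave 10.90 for Atp13a5 from EC. Sizes against fibroblasts were the least settled. Over 12 settings, the reported one included, they ran from 4.96 to 8.76 for Rgs5, 5.23 to 8.14 for Ndufa4l2, 5.46 to 6.83 for Cspg4 and 4.84 to 5.94 for Cox4i2. Higd1b, with 2 UMIs in the fibroblasts, ran from 6.43 (the gate without Vtn) to 10.54 over these settings, and from 7.84 to 10.56 with 1 mouse left out. With 1 mouse left out, Rgs5 was at 5.02 without R182C-TgN3 9 months replicate 2 or WT-TgN3 9 months replicate 1, at 6.36 without R182C-TgN3 6 months replicate 2 and at 6.72 without WT-TgN3 6 months replicate 1. Without that last mouse Cspg4 was at 6.39 and Ndufa4l2 at 6.30, and without R182C-TgN3 9 months replicate 2 Cspg4 was at 5.13.

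To see how often single cells held a member, cells were first thinned to 2000 UMIs each, which left out 41 pericytes, 28 SMC, 1833 EC, 5 fibroblasts and 702 microglia with fewer. Rgs5 was present in 100% of pericytes, Atp13a5 in 91.2% ± 7.4 (SD, n = 11 mice), Higd1b in 86.1% ± 5.9, Ndufa4l2 in 83.5% ± 10.4 and Art3 in 76.1% ± 9.1. The others were seen in fewer cells, Cspg4 in 66.0% ± 9.0, Cox4i2 in 61.4% ± 7.6, Pth1r in 40.8% ± 8.5 and Anpep in 23.3% ± 8.5. Vtn, in 98.6%, is high by the choice of the cells. Without thinning these shares were 100% for Rgs5, 92.9% for Atp13a5, 92.7% for Higd1b, 91.5% for Ndufa4l2, 86.4% for Art3, 79.8% for Cspg4, 77.5% for Cox4i2, 63.2% for Pth1r and 40.1% for Anpep.

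In SMC thinned in the same way, the most frequent members were Rgs5 (50.1% ± 4.2) and Cspg4 (41.2% ± 5.5), followed by Higd1b (30.8%), Ndufa4l2 (22.1%), Vtn (20.4%), Cox4i2 (16.4%) and Pth1r (10.2%). Atp13a5 was seen in 5.80% of SMC, Art3 in 2.77% and Anpep in 0.148%. Without thinning, Cspg4 was seen in 80.4% of SMC and 79.8% of pericytes, at the greater depth of SMC. EC and microglia are given beside the mural classes, at median depths of 3332 to 7742 and 4059 to 8416 UMIs per mouse. The limit on pericyte genes left out EC and microglia with more pericyte RNA, so their shares are low by construction. With the gate without Vtn, the UMIs of Atp13a5 in EC rose from 469 to 1333. The part of free RNA in these shares was not tested. In EC the shares were between 0.110% for Anpep and 0.666% for Art3, apart from 1.24% for Vtn and 3.96% for Rgs5. In microglia all were below 1% apart from Art3 at 5.16% ± 1.53. Atp13a5 was seen in 0 of 75 thinned fibroblasts, which allows a share of up to 4%, whereas Anpep was seen in 13.3% and Pth1r in 9.44% of them.

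**Figure D3:**
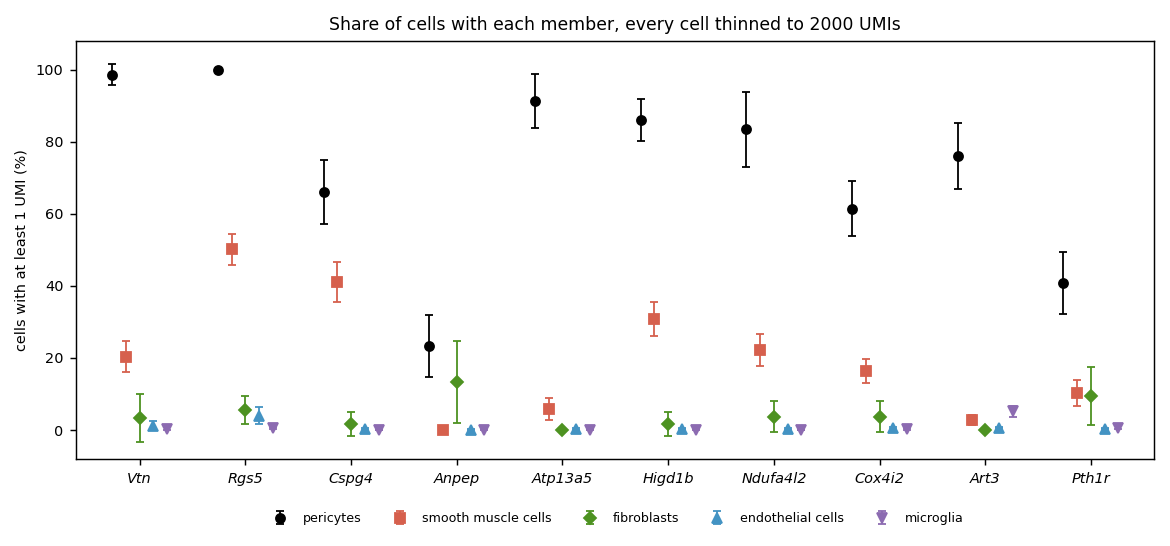
Share of cells with at least 1 UMI of each member, in percent, after every cell was thinned to 2000 UMIs, as the mean over mice with bars of 1 SD (11 mice, fibroblasts 4). Pericytes lie above all other classes for every member, from 23.3% for Anpep to 100% for Rgs5, and SMC reach 50.1% for Rgs5 and 41.2% for Cspg4.

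Cells were also described by how many members each held. Whether members met in a cell more often than their separate shares give was not tested. Of the 9 members other than Vtn, a thinned pericyte held a median of 7, with quartiles of 6 and 7, and 303 of 333 (91.0%) held at least 5, while none was without any. An SMC held a median of 2, and 82 of 2049 (4.0%) held at least 5. In EC 94.3% of cells, in microglia 93.6% and in fibroblasts 68.0% held none. The make-up of the member UMIs also differed between the classes. In pericytes Vtn gave 44.6%, Rgs5 23.8% and Atp13a5 12.5% of them, and in SMC Rgs5 gave 50.5%, Cspg4 13.9% and Higd1b 11.8%. In EC Rgs5 gave 61.2% and in microglia Art3 gave 68.5%.

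Several members belong to gene families, and the relatives were fixed as a list. Ndufa4 encodes a subunit of cytochrome c oxidase, and of the summed UMIs of Ndufa4l2 and Ndufa4, Ndufa4l2 made up 96.7% ± 2.4 in pericytes (90.7% to 99.0% over 11 mice), 25.5% ± 3.1 in SMC (20.1% to 30.5%), 6.42% in fibroblasts, 0.572% in EC and 0.231% in microglia. The mouse ranges of pericytes and SMC did not overlap, and both genes contributed: Ndufa4 was at 32.2 ± 23.3 CPM in pericytes but 430 ± 66.3 in SMC and 393 ± 48.2 in EC. Cox4i2 made up 59.8% ± 9.1 of the sum with Cox4i1 in pericytes (37.4% to 71.2%) and 14.7% ± 3.5 in SMC, but Cox4i1 itself was not so low, at 359 in pericytes, 525 in SMC and 379 in EC. Higd1b made up 96.0% ± 2.4 of the sum with Higd1a in pericytes, 67.6% ± 5.3 in SMC and 2.87% in EC, with Higd1a at 46.6, 112 and 86.1.

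Rgs5 differed from these pairs. Rgs4, another regulator of G-protein signals, was high in both mural classes, at 678 in pericytes and 893 in SMC, so that Rgs5 made up 89.7% ± 3.1 of the pair in pericytes and 54.2% ± 6.5 in SMC. Among the other ATPases of the P5 family, Atp13a3 was at 50.0 in pericytes, 51.2 in SMC and 83.3 in EC, and Atp13a1, Atp13a2 and Atp13a4 were at 16.2, 9.47 and 12.0 in pericytes, each far below Atp13a5. Pth2r was at 2.21 in pericytes. Art4 had no UMI in pericytes or SMC and was at 20.8 in fibroblasts. Enpep, aminopeptidase A, was at 356 in pericytes, 41.1 in SMC, 64.7 in fibroblasts and 1.05 in EC, so that Anpep was 29.3% of the pair in pericytes and 2.77% in SMC.

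**Figure D4:**
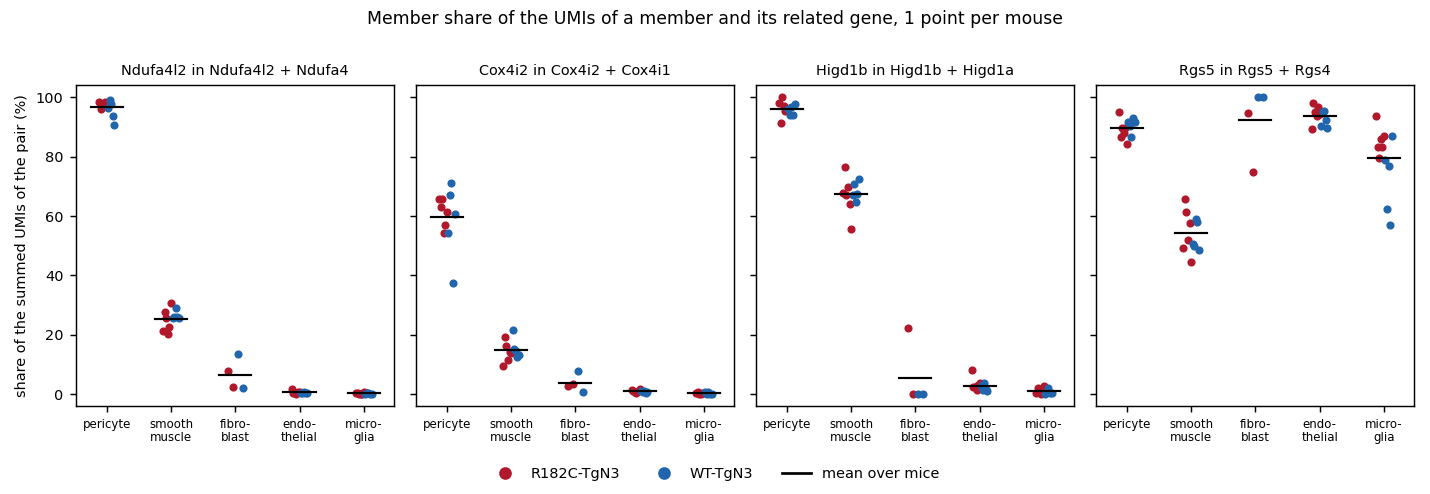
Share of the summed UMIs of 2 related genes that came from the member, in percent, for 4 pairs in each class, with 1 point per mouse and a line at the mean. Ndufa4l2 and Higd1b take nearly the whole sum in pericytes (96.7% and 96.0%) and little of it in EC (0.572% and 2.87%), while Rgs5 dominates its pair outside SMC, where it takes 54.2%.

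A list of 30 other mural genes gave the setting for these differences. Against SMC, 21 were higher in pericytes, 8 were lower and 1 did not pass (Ebf1, 0.16, edgeR adjusted p = 0.21), with a median log2 difference of 0.89 where the 9 members had 2.28. Ggt1 (9.95), Slc6a13 (8.20) and Ifitm1 (5.94) differed most upward. Des, which encodes the filament protein desmin, fell by 2.85, Mcam by 1.84 and Pde5a by 1.13 on the log2 scale. Against EC, 28 were higher and 2 lower, with a median of 7.79 (members 7.49), and against fibroblasts 24 of 29 were higher, none was lower and 5 did not pass, with a median of 2.78 (members 5.72).

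Genes whose level followed the members over the classes were sought among 10947 genes with Pearson's r of log2 values over 37 sums of a class in a mouse. These sums share libraries, and the 4 classes fall into separate groups, so r mostly describes the order of the classes. The 4 closest to the mean of the members were Pde8b, Lamc1, Airn and Arhgap42 (r = 0.98 each). The closest for each member were Sept7 for Vtn (0.97), Tbx3os1 for Rgs5 (0.98), Plekhg3 for Cspg4 (0.99), Ifitm1 for Anpep (0.95), Ecm2 for Atp13a5 (0.98), Osbpl3 for Higd1b (0.99), Slc19a1 for Ndufa4l2 (0.99), Klhl23 for Cox4i2 (0.98), Slc12a2 for Art3 (0.98) and P2ry14 for Pth1r (0.99). Between members, r was highest for Ndufa4l2 with Cox4i2 (0.986) and lowest for Anpep with Higd1b (0.387).

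The genotypes were compared in pericytes of the 6 R182C-TgN3 mice and of the 4 WT-TgN3 mice with at least 20 pericytes. WT-TgN3 9 months replicate 2, with 12, was left out. The transgene set the groups apart: human NOTCH3 was at 789 to 1642 CPM in R182C-TgN3 pericytes and at 250 to 473 in WT-TgN3 pericytes. The log2 difference was 1.77 by edgeR, and 2.48 in SMC, so that the lines differed in the amount of transgene RNA. For each UMI of mouse Notch3 there were 0.909 to 1.39 UMIs of human NOTCH3 in R182C-TgN3 pericytes and 0.246 to 0.505 in WT-TgN3 pericytes (all 5 mice).

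None of the 10 members was called different between the genotypes, where 0.0955% of the 2095 genes tested were called. That is 2 genes, NOTCH3 and the endothelial gene Flt1 (-1.36), and 140 genes had an unadjusted p under 0.05. All 10 member differences were positive, that is higher in R182C-TgN3, with a median of 0.23 on the log2 scale against 0.00272 over all genes, and the ranges of the 2 genotypes overlapped for all 10. The EC genes in the gated pericytes moved with genotype as well, at 145, 188 and 257 CPM (lowest, median, highest) in R182C-TgN3 and 242, 477 and 680 in WT-TgN3, and their part in the member values was not tested.

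Vtn was at 10791, 11412 and 12672 CPM in R182C-TgN3 pericytes (lowest, median and highest of 6 mice). In WT-TgN3 mice it was at 10164, 9323 and 11159 at 6 months and at 9097 at 9 months. Only 1 WT-TgN3 mouse was above the lowest R182C-TgN3 mouse, and the log2 difference was 0.23 (SE 0.11, edgeR adjusted p = 0.735, 95% interval -0.0039 to 0.47). Vtn was among the genes that chose these cells, so its values describe cells selected for it. Over 17 settings, the reported one and the gate without Vtn included, the log2 difference ran from 0.19 to 0.29.

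Higd1b was at 994, 1341 and 1599 in R182C-TgN3 and at 999.7, 1103, 1117 and 968 in the 4 WT-TgN3 mice in the same order. The lowest R182C-TgN3 mouse lay among the WT-TgN3 values and the other 5 lay above all 4. The log2 difference was 0.36 (SE 0.16, edgeR adjusted p = 0.700), the only member with an unadjusted p under 0.05. Cox4i2 was at 448, 587 and 763 against 347, 561, 631 and 332, with a log2 difference of 0.37 (SE 0.22, edgeR adjusted p = 0.822).

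For the other members the spread between mice was larger than the difference. Rgs5 was at 4576, 6279 and 7250 in R182C-TgN3 and at 6123, 5493, 5634 and 6686 in WT-TgN3, a log2 difference of 0.01 with a 95% interval from -0.26 to 0.27. Atp13a5 was at 2841, 3195 and 3678 against 2735, 3554, 3995 and 2169 (0.05, SE 0.15). Ndufa4l2 differed by 0.25 (SE 0.17), Pth1r by 0.22 (SE 0.22), Art3 by 0.17 (SE 0.17), Cspg4 by 0.14 (SE 0.19) and Anpep by 0.28 (SE 0.28).

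**Figure D5:**
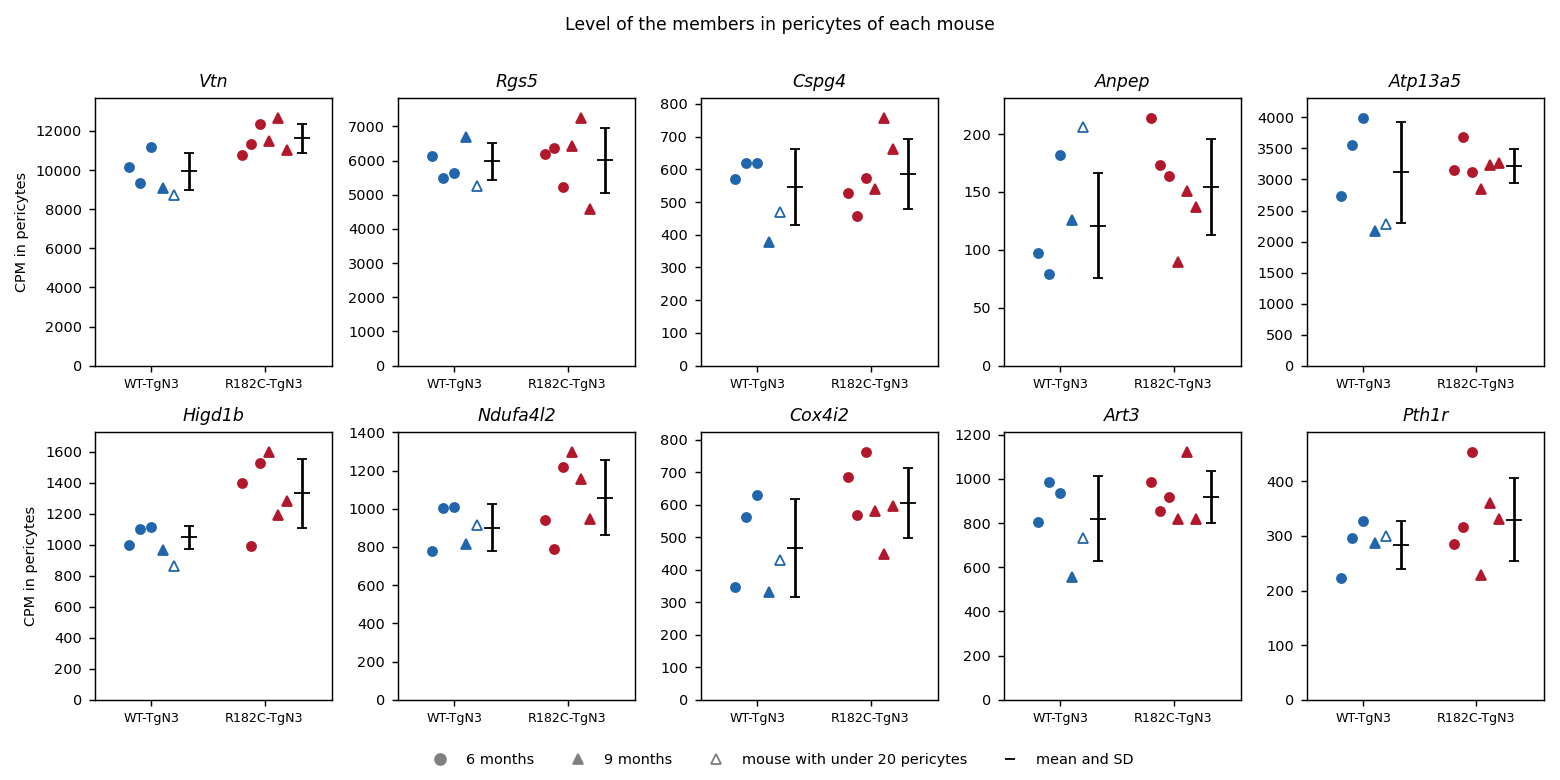
CPM of each member in the pericytes of each mouse, by genotype, with circles for 6 months, triangles for 9 months and an open triangle for the WT-TgN3 mouse with 12 pericytes. The mean and SD beside the points leave that mouse out (4 WT-TgN3 and 6 R182C-TgN3 mice), and the points of the genotypes overlap in all 10 panels.

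The batches were looked at one by one. In batch 1 (9 months, 2 R182C-TgN3 mice and 1 WT-TgN3 mouse with enough pericytes) 9 of 10 members had a higher mean in R182C-TgN3, in batch 3 (6 months, 2 of each) 8 of 10 and in batch 4 (6 months, 1 of each) 5 of 10, and batch 2 held 1 R182C-TgN3 mouse alone. What share of all genes was higher in R182C-TgN3 in each batch was not computed, so these counts only describe the members. Members were counted in the same cells, from 1 or 2 mice per genotype and batch, so they are not separate tests. Vtn, Higd1b, Cox4i2 and Pth1r were higher in R182C-TgN3 in all 3 batches. The log2 ratios were 0.41, 0.18 and 0.15 for Vtn, 0.53, 0.19 and 0.45 for Higd1b, 0.63, 0.46 and 0.27 for Cox4i2 and 0.04, 0.22 and 0.47 for Pth1r. With batch as a covariate Vtn, Higd1b and Cox4i2 had log2 differences of 0.25, 0.36 and 0.46, and edgeR adjusted p-values of 0.665, 0.696 and 0.690. Over 27 settings 0 of 270 member fits were called, with 0.499 as the smallest adjusted p, and without the shared barcodes 2 genes and no member were called.

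In SMC, 9 members could be tested between the genotypes, since Anpep was too low, and none was called, where 1 of 8694 genes (0.0115%) was, NOTCH3 itself. None of the members was called by DESeq2 in either class, and 223 genes in SMC had an unadjusted p under 0.05 by edgeR and 141 by DESeq2. The log2 differences ran from -0.28 (Atp13a5, SE 0.31) to 0.09 (Rgs5, SE 0.20), with a median of 0.05, and 7 of 9 were positive. Rgs5 in SMC was at 639, 1072 and 1924 CPM in R182C-TgN3 (6 mice) and at 801, 1023 and 1384 in WT-TgN3 (5 mice), and Higd1b at 192, 244 and 286 against 154, 253 and 279. The ranges of the genotypes overlapped for both.

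Whether the genotype difference changed with age was tested as an interaction, in which 0 of 10 members were called and 1 of 3459 genes (0.0289%) was. The 9 months WT-TgN3 group has 1 mouse here, which is assumed to vary like the others. Cspg4 had the largest value, 0.96 (SE 0.40, edgeR adjusted p = 0.714). Its mean was 519 CPM in R182C-TgN3 and 603 in WT-TgN3 at 6 months, and 654 in R182C-TgN3 against 376 in the 1 WT-TgN3 mouse at 9 months. With the mouse of 12 pericytes included the value was 0.84 (edgeR adjusted p = 0.766). Age goes with batch, and neither is tested by itself.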

How the data were processed

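Counts of UMIs per gene and barcode were deposited by the authors as whole numbers without normalization, 1 table per mouse, made with Cell Ranger 7.0.0 on mm10 per the submitters' processing notes, with human NOTCH3 added to the transcriptome. No replicate was pooled. The members, gene lists and gates were chosen with earlier results of these data known.

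Of 66658 barcodes, 61625 had 500 genes or more and no more than 10% mitochondrial UMIs. In each library, barcodes were ranked by likeness to simulated doublets (2000 variable genes, 30 components) and the top 0.8% per 1000 barcodes were removed, 3279 in all. Cells were then gated on fixed marker genes, with at least 1 UMI of every gate gene of a class, or 3 of 5 for fibroblasts, and no class was taken from clustering. Counts were summed per mouse and class for mice with at least 20 cells (10 for fibroblasts). CPM and shares of UMIs are over all genes. For the tests, as in the study's methods, genes of ribosomes and mitochondria and those named Gm or Rik were left out of the sums. After filterByExpr and TMM normalization, these reduced sums were tested in edgeR 4.0.16 (quasi-likelihood, 2-sided) in R 4.3.3. Benjamini-Hochberg adjustment was over all genes tested, with a threshold of 0.05. R182C-TgN3 was compared with WT-TgN3 without covariates, and classes with the mouse as a block. DESeq2 1.42.0 was the alternative tool.

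Python 3.11.15, numpy 2.4.6, scipy 1.17.1, pandas 2.3.3, scikit-learn 1.9.0 and matplotlib 3.10.9 were used. The fits were tested on simulated data with known changes. The named genes were the members, the gate genes, NOTCH3 and Notch3, listed relatives, the list of other mural genes (the 3 largest and 3 smallest differences from SMC) and the genes most like the members; Flt1 and Ebf1 were named after their values were seen. Gene positions are from GENCODE vM21 and promoters from RefSeq (GRCm38.p6). Libraries of the same group are taken as separate mice, as the labels number them. Limits for a count of 0 cover counting error alone.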

Additional observations from a re-analysis of the deposited data

Results flagged for a closer look

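In 40 groups of 4 to 6 samples no member value stood apart from the others by Dixon's criterion, which chance would meet in about 1 group of 20. Of the cells that enter no comparison, those gated as ependymal cells held 0.00814% of their UMIs in the 10 members (34 UMIs, 47.1% of them Rgs5 and 20.6% Art3) and perivascular macrophages 0.00647% (25 UMIs), both above the highest microglia library at 0.00602%. Both lie within the range of EC, 0.00330% to 0.0149% over 11 mice. The part of free RNA or of attached pericytes in these values was not tested.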

How the results depend on the processing

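The members' calls between classes kept their side of the threshold in 509 of 513 refits, the exceptions being those of Anpep against fibroblasts given in the report, and no member was called between genotypes in any setting. Across all genes, 2 were called between genotypes in pericytes. This count became 62 with no filter on low counts, 21 with batch and 14 with age as a covariate, and 1 with the gate without Vtn, with at least 2 UMIs of each gate gene and at least 10 cells, and with the limit of 10 in 10000 and at least 10 cells. Leaving out 1 mouse gave 1 to 4. The interaction with age called 0 genes with the mouse of 12 pericytes included and 0 with DESeq2 (167 and 93 at an unadjusted p under 0.05, against 219 in edgeR). Against fibroblasts 618 genes were called higher and 759 lower, and 802 to 1360 in all with 1 mouse left out, lowest without R182C-TgN3 9 months replicate 2. Some small genotype differences changed sign. In pericytes Rgs5 was at -0.0013 (DESeq2), -0.00036 (its size factors), -0.0049 (all genes), -0.0083 (age), -0.031 (gate without Vtn), -0.046 (2 UMIs) and -0.017 (at least 1000 genes), and Atp13a5 at -0.0057 (2 UMIs). In SMC Cox4i2 was at -2.8e-05 (all genes), -0.016 (sex), -0.0085 (doublets kept) and -0.0036 (limit of 10), and Ndufa4l2 at -0.068 (batch). With 1 mouse left out, pericyte values ran from -0.046 to 0.071 for Rgs5, -0.085 to 0.19 for Atp13a5 and -0.0022 to 0.23 for Cspg4. In SMC they ran from -0.13 to 0.31 for Art3, -0.12 to 0.12 for Cox4i2, -0.022 to 0.20 for Higd1b, -0.041 to 0.17 for Ndufa4l2, -0.11 to 0.21 for Rgs5 and -0.042 to 0.11 for Vtn. The cause of these shifts was not tested.

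The replicate numbers did not pair the mice: deviations of same-numbered mice of an age correlated across genes with r from 0.0273 to 0.142 in pericytes and from -0.121 to 0.154 in SMC. A replicate block on age and number called 15 genes in pericytes, and turned Cspg4 to -0.012 there and Ndufa4l2 to -0.051 in SMC. It called no member. The gate of 2 UMIs with at least 20 cells was not run for pericytes, since only R182C-TgN3 mice reached it. Pericytes limited the genotype test: with 6 and 4 mice, simulated log2 changes of 1 were recovered for 66% of genes and of 2 for 100%. Over all 11 mice, pericyte sums held 53404 to 292391 UMIs. The lowest was that of the mouse with 12 pericytes, which the test left out.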

Other observations

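Choroid plexus epithelial cells, 162 in all, held 246 UMIs of the members, 66.7% of them Vtn and 17.1% Rgs5, and the members made up 0.00776% ± 0.00527 of their UMIs (SD, n = 7 mice). B cells held 24 UMIs of the members, 10 of them Vtn and 9 Rgs5, and T cells held 11, of which 4 were Rgs5. The mouse left out of the genotype tests, WT-TgN3 9 months replicate 2 with 12 pericytes, had 8707 CPM of Vtn and 861 of Higd1b, the lowest value of all 11 mice for both, and 206 of Anpep, near the highest.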
